A study of Mus musculus with 13 samples.

Results

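The genes described here are 10 zinc genes of the mouse lung: the importers Slc39a14, Slc39a8, Slc39a1, Slc39a6, Slc39a7 and Slc39a10, the exporters Slc30a1 and Slc30a4, and the metallothioneins Mt1 and Mt2. The set was chosen from measured values, because Slc39a14 was among the genes most steadily lower in bleomycin-treated lungs labelled CB1R knockout than in bleomycin-treated wild-type lungs, and the other zinc genes were listed with it. All 10 were among the 20270 genes of the deposited tables, and all 10 passed the filter on low counts that left 15315 genes for testing. Because the set was chosen on the difference between both bleomycin groups, values for that difference are given below as a description, without a p-value, and calls only as counts beside the share of all genes called.

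Zinc reaches the cytosol through the ZIP transporters of the Slc39 family and leaves it through the ZnT transporters of the Slc30 family, either across the plasma membrane or into vesicles. Metallothioneins are small cysteine-rich proteins that bind zinc and copper, and their genes and Slc30a1 are switched on by the metal-sensing transcription factor MTF1 when cytosolic zinc rises. In the acute-phase response IL-6 raises Slc39a14, which imports manganese and non-transferrin iron as well as zinc, while Slc39a8 carries zinc and manganese and is known for its high expression in the lung.

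Bulk RNA was sequenced from the lower right lung lobe of 13 mouse samples in 3 groups. The Control group (n = 4) was C57BL/6J wild type, treated with saline vehicle where bleomycin was given to the others. WT bleomycin (n = 5) was C57BL/6J wild type, 14 days after a single oropharyngeal dose of bleomycin, the drug used to induce lung fibrosis. CB1R KO bleomycin (n = 4) carried the Cnr1-/- deletion on a C57Bl/6J background in the whole animal and received the same bleomycin dose, again 14 days before. The wild-type mice were males aged 13 weeks, and the sex and age of the knockout mice are not given separately in the sources used here. No untreated CB1R KO lung was analysed here, so an effect of the deletion alone cannot be told apart from an effect on the response to bleomycin. Libraries are named below by the number in their labels. WT bleomycin replicates 4 and 4-B2 share a number, and the labels do not say whether they share a mouse. Where samples are not separate animals, the p-values measure only the spread between these samples.

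The estimated counts of 12 libraries totalled 14615904 to 16662580, and CB1R KO replicate 11 held 53463884, which is 3.33 times the median of the others. Cnr1, the targeted gene, had 1.62 to 4.1 CPM (counts relative to the TMM-scaled library total) in Control, 3.46 to 6.97 in WT bleomycin and 2.47 to 5.63 in the libraries labelled CB1R KO. Its levels therefore overlapped between both bleomycin groups. The counts are sums over whole genes and do not show which part of the transcript was read, so they neither check nor contradict the deletion, and the knockout libraries are identified by their labels alone. Markers of lung cells were present in every group, with mean Sftpc, the type II cell surfactant gene, at 27907, 16027 and 25696 TPM (the deposited length-scaled values) in Control, WT bleomycin and CB1R KO bleomycin. The titles of Control 26, WT bleomycin 4-B2 and WT bleomycin 7 are written in mixed case and all others in lower case. The labels do not say what this marks, and no library labelled CB1R KO has a mixed-case title. For the members whose results move with title style, values without those 3 libraries are given as well.

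Slc39a14, the ZIP14 importer, showed the largest change of the 8 transporters in WT lungs post-bleomycin. Its level in Control was 23.1, 24.5, 22.5 and 27.7 CPM in replicates 3, 21, 24 and 26. In WT bleomycin replicates 4, 2, 5, 4-B2 and 7 it was 96.5, 99.8, 83.3, 113 and 111 CPM. The libraries labelled CB1R KO, replicates 8, 9, 10 and 11, had 51.1, 54.9, 67.8 and 61.2 CPM. The 3 groups did not overlap: every WT bleomycin library lay above every library labelled CB1R KO, and all of those lay above every Control library. Slc39a14 rose in WT bleomycin against Control, with a log2 fold change of 2.04 (SE 0.11), or 4.12-fold, and an adjusted p of 2.37e-08 by the edgeR quasi-likelihood test with Benjamini-Hochberg adjustment over all genes tested. It also rose in the libraries labelled CB1R KO against the same Control libraries, by 1.27 (SE 0.11) on the log2 scale, with an edgeR adjusted p of 2.38e-06. Both comparisons share their 4 Control libraries. Between the bleomycin groups, the contrast used to choose the gene, the log2 difference was -0.77 (SE 0.10), and it was -0.67 (SE 0.10) over the libraries with lower-case titles. Of the increase in mean CPM seen in WT lungs, 45.1% ± 9.66 (SD, n = 4) was present in the libraries labelled CB1R KO.

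**Figure D1:**
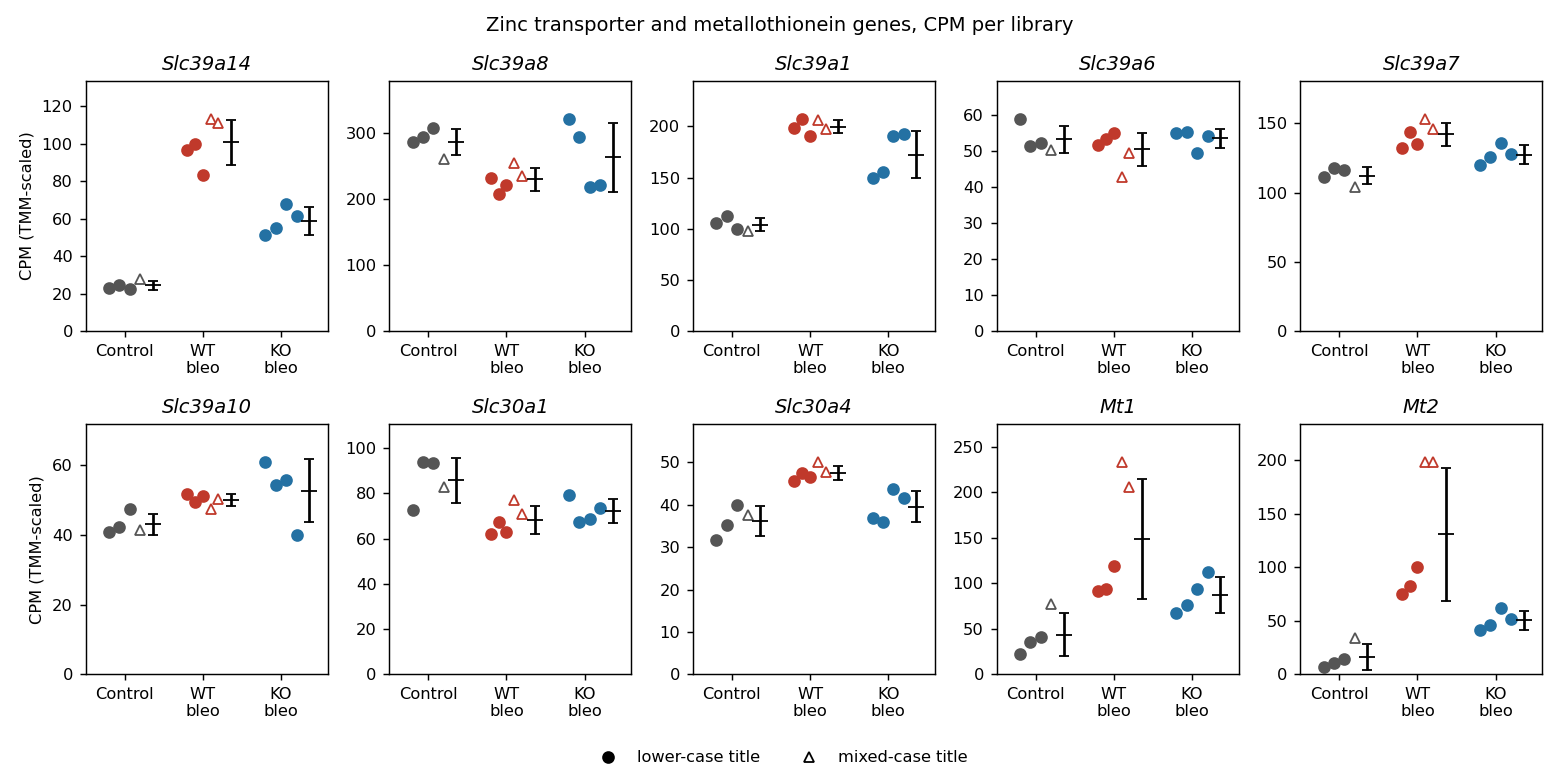
CPM of the 10 zinc genes in each library (points), with the group mean and SD beside them (black bars, n = 4, 5 and 4); each panel has its own linear axis starting at 0, and open triangles mark mixed-case titles. The 3 groups of Slc39a14 are apart at 22.5 to 27.7, 83.3 to 113 and 51.1 to 67.8 CPM, and the open triangles hold the highest Mt1 and Mt2 values of Control and of WT bleomycin.

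Slc39a8, the ZIP8 importer and closest relative of ZIP14 among the members, went the other way in WT lungs. Its level in Control was 286, 294, 307 and 260 CPM, and in WT bleomycin it was 232, 208, 221, 255 and 235 CPM. All WT bleomycin libraries lay below all Control libraries, and Slc39a8 fell by 0.32 on the log2 scale (SE 0.11, edgeR adjusted p = 0.0250). That call was lost, at adjusted p values of 0.0554 to 0.0711, when Control 21, Control 24, WT bleomycin 2 or WT bleomycin 5 was left out. The libraries labelled CB1R KO were spread over 321, 294, 218 and 221 CPM in replicates 8, 9, 10 and 11, so that the first pair lay above the Control median and the second within the WT bleomycin range. Against Control the log2 difference there was -0.12 (SE 0.11, edgeR adjusted p = 0.426). On the per-length TPM scale the ratio of Slc39a8 to Slc39a14 was 15.6 ± 2.49 (SD, n = 4) in Control and 2.87 ± 0.308 (n = 5) in WT bleomycin. It was 5.74 ± 1.99 (n = 4) in the libraries labelled CB1R KO, and the 3 ranges (12.7 to 18.4, 2.49 to 3.25 and 3.84 to 7.88) did not overlap.

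Slc39a1, the broadly expressed ZIP1 importer of the plasma membrane, nearly doubled in WT lungs. Control libraries held 106, 112, 100 and 97.9 CPM, and WT bleomycin libraries 198, 207, 191, 206 and 197 CPM. The libraries labelled CB1R KO split into replicates 8 and 9 at 150 and 155 CPM and replicates 10 and 11 at 191 and 193 CPM, all above Control, with the second pair inside the WT bleomycin range. The rise was 0.94 (SE 0.08, edgeR adjusted p = 5.45e-07) in WT bleomycin and 0.73 (SE 0.08, edgeR adjusted p = 1.91e-05) in the libraries labelled CB1R KO, both as log2 fold changes against Control. The log2 difference between the bleomycin groups was -0.21 (SE 0.08), and their libraries overlapped.

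The other importers changed less. Slc39a7, the ZIP7 transporter that releases zinc from the endoplasmic reticulum, had 104 to 118 CPM in Control, 132 to 153 in WT bleomycin and 120 to 136 in the libraries labelled CB1R KO. It rose against Control in both, with log2 fold changes of 0.34 (SE 0.06, edgeR adjusted p = 0.000339) and 0.18 (SE 0.06, edgeR adjusted p = 0.0359). Slc39a10, the ZIP10 importer, had 40.8 to 47.5 CPM in Control and 47.3 to 51.6 in WT bleomycin, where the log2 difference of 0.22 (SE 0.10) did not pass the test (edgeR adjusted p = 0.0841). It rose in the libraries labelled CB1R KO by 0.29 on the log2 scale (SE 0.10, edgeR adjusted p = 0.0436), although replicate 11 at 39.9 CPM lay below every Control library. Slc39a6, the ZIP6 importer that forms complexes with ZIP10, had group means of 53.2, 50.4 and 53.5 CPM in Control, WT bleomycin and CB1R KO bleomycin, with all groups overlapping. Its log2 differences from Control were -0.08 (SE 0.08, edgeR adjusted p = 0.430) and 0.01 (SE 0.08, edgeR adjusted p = 0.943), and the sign of the second turned under upper-quartile scaling. The 2 small calls in the libraries labelled CB1R KO did not hold throughout. The adjusted p of Slc39a7 was 0.0614 without Control 3, 0.117 without Control 26, and 0.0501, 0.0924 and 0.0525 without the libraries labelled CB1R KO 9, 10 and 11. That of Slc39a10 was 0.0943, 0.0864 and 0.0967 without Control 3, 21 and 26, between 0.0517 and 0.0538 without WT bleomycin 4, 2, 5 or 7, and 0.126, 0.0828 and 0.104 without the libraries labelled CB1R KO 8, 9 and 10.

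The exporters moved in opposite directions in WT lungs. Slc30a1, the ZnT1 exporter of the plasma membrane and a target of MTF1, had 72.8, 93.7, 93.4 and 83.0 CPM in Control and 62.0, 67.5, 62.9, 77.3 and 71.0 CPM in WT bleomycin. The groups overlapped through Control 3, and Slc30a1 fell by 0.33 on the log2 scale (SE 0.09, edgeR adjusted p = 0.00593). In the libraries labelled CB1R KO it had 67.4 to 79.3 CPM and a log2 fold change of -0.25 (SE 0.09, edgeR adjusted p = 0.0494), a call that was lost in 18 of 24 alternative analyses (adjusted p from 0.0127 to 0.257 over all 24). Of the libraries left out in turn, leaving out Control 3, WT bleomycin 4-B2 or the library labelled CB1R KO 8 kept it, and leaving out any other library ended it. Slc30a4, the vesicular ZnT4 transporter, had 31.8 to 40.0 CPM in Control and a narrow 45.5 to 50.0 CPM in WT bleomycin, and rose by 0.39 on the log2 scale (SE 0.08, edgeR adjusted p = 0.000767). In the libraries labelled CB1R KO it had 37.0, 35.9, 43.7 and 41.7 CPM, all below every WT bleomycin library and overlapping Control. The log2 difference from Control there was 0.13 (SE 0.08, edgeR adjusted p = 0.225), and that from WT bleomycin was -0.26 (SE 0.08).

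Mt1 and Mt2 lie next to each other on mouse chromosome 8, in a row with Mt4 and Mt3 in the RefSeq gene order. Their promoters are shown because both genes changed by the largest amounts beside Slc39a14 and because MTF1 binds a short sequence, the metal response element, that can be searched for. Each stretch below runs from 250 bases before to 50 after the RefSeq start (build GRCm38.p6, + strand): chr8:94178839-94179138 for Mt1 and chr8:94172368-94172667 for Mt2. Capitals mark the metal response element core, TGCACNC or TGCGCNC on either strand.
Mt1 promoter: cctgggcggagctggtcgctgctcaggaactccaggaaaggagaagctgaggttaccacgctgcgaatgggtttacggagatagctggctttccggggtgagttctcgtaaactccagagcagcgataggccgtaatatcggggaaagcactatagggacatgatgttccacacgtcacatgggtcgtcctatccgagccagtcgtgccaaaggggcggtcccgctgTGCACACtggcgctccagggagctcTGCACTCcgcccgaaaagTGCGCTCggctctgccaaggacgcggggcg
Mt2 promoter: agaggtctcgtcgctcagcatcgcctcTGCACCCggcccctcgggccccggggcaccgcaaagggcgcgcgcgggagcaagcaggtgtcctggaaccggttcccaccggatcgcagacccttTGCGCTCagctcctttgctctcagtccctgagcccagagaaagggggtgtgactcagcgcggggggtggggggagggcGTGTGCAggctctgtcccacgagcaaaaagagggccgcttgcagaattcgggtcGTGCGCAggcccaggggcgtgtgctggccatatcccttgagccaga
The core occurred 3 times in the Mt1 stretch and 4 times in that of Mt2, counted on both sides of the RefSeq start. TGCACTC and TGCGCTC in Mt1 and GTGCGCA in Mt2 lay within the 50 bases after that start. Of 32851 mouse promoters of the same length, 25.7% held at least 1 core, 1.97% held 3 or more and 0.517% held 4 or more. Promoters of 8 of the 10 genes were matched by symbol, and those of Slc39a14 and Slc39a6 were not. Slc30a4 held 3 cores, Slc30a1 held 2 and 1 of the 2 Slc39a8 promoters held 1, whereas the promoters of Slc39a1, Slc39a7 and Slc39a10 held no such letters in this window. The STAT motif TTCNNNGAA, found in 8.30% of all promoters, occurred once among the members, in 1 of the 2 promoters of Slc39a10. The antioxidant response element core TGACNNNGC, found in 12.4%, occurred once each in the promoters of Mt2, Slc30a1 and Slc39a1 and in 1 promoter of Slc39a8. A match is a description of the letters and not a measured binding site.

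Mt1 and Mt2 rose post-bleomycin, and relative to their means their levels varied more between libraries of Control and of WT bleomycin than those of any transporter here. Mt1 had 22.0, 35.5, 40.6 and 77.3 CPM in Control replicates 3, 21, 24 and 26. In WT bleomycin replicates 4, 2, 5, 4-B2 and 7 it had 92.1, 93.8, 119, 233 and 206 CPM. Replicates 8 to 11 of the libraries labelled CB1R KO had 67.2, 75.8, 94.4 and 112 CPM. Every WT bleomycin library was above every Control library, while those labelled CB1R KO overlapped both other groups. Mt1 rose by 1.77 on the log2 scale in WT bleomycin (SE 0.36, edgeR adjusted p = 0.000908) and by 1.0 in the libraries labelled CB1R KO (SE 0.36, edgeR adjusted p = 0.0436). The second call was kept in 16 of 24 alternative analyses. Among others, it was lost without Control 3, 21 or 24, WT bleomycin 5, or the libraries labelled CB1R KO 10 or 11, where adjusted p lay between 0.0505 and 0.117, and by DESeq2 at 0.0629.

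Mt2 changed more than Mt1. It had 6.95, 10.9, 14.0 and 34.1 CPM in Control, 75.4, 82.2, 99.9, 198 and 198 CPM in WT bleomycin, and 41.7, 45.8, 62.1 and 52.1 CPM in the libraries labelled CB1R KO. The 3 groups did not overlap. Mt2 rose by 2.99 on the log2 scale in WT bleomycin (SE 0.43, edgeR adjusted p = 5.35e-05), or 7.94-fold, and by 1.62 in the libraries labelled CB1R KO (SE 0.43, edgeR adjusted p = 0.00898). The ratio of Mt2 to Mt1 on the TPM scale was 0.474 ± 0.136 (SD, n = 4) in Control, 1.10 ± 0.0880 (n = 5) in WT bleomycin and 0.756 ± 0.0923 (n = 4) in the libraries labelled CB1R KO. It exceeded 1 in every WT bleomycin library (1.01 to 1.22) and in none of the others (0.362 to 0.665 in Control and 0.630 to 0.845 in CB1R KO bleomycin). Over lower-case titles the ratio was 0.41 ± 0.0573 (n = 3) in Control and 1.07 ± 0.0734 (n = 3) in WT bleomycin. Estimated counts of Mt1 and Mt2 were whole, within 0.05, in all 13 libraries. How reads shared by these similar genes were divided was not examined here, which leaves the ratio uncertain.

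The metallothionein levels moved with title style. Within Control and within WT bleomycin, the mixed-case libraries held the highest values of both genes. The same held for Slc39a14, at 27.7 CPM in Control 26 and 113 and 111 CPM in WT bleomycin 4-B2 and 7. With title style as a term beside group, a fit chosen after the values were seen, 9 of 15315 genes (0.0588%) differed by style at an edgeR adjusted p under 0.05, and Mt2 had the lowest p of all. Mixed-case libraries were higher by 1.37 for Mt2 (SE 0.17, edgeR adjusted p = 0.0206) and by 1.16 for Mt1 (SE 0.17, edgeR adjusted p = 0.0391) on the log2 scale. Slc39a14 did not pass, at 0.26 (SE 0.09, edgeR adjusted p = 0.410), nor did the other 7 members. Of these 8, 2 had an edgeR unadjusted p under 0.05, as did 9.78% of all genes. They were Slc39a14 (0.0107) and Slc39a6 (0.0335, lower in mixed-case libraries). The log2 difference of Mt1 between the bleomycin groups was -0.76 (SE 0.34) over all libraries and -0.21 (SE 0.20) over those with lower-case titles. For Mt2 it was -1.37 (SE 0.39) over all libraries and -0.77 (SE 0.19) over those with lower-case titles. Against Control, the calls of both genes were kept among lower-case titles: Mt1 rose by 1.64 and 1.43 and Mt2 by 3.02 and 2.25 in WT bleomycin and CB1R KO bleomycin, with edgeR adjusted p of 0.000834 or less for each.

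**Figure D2:**
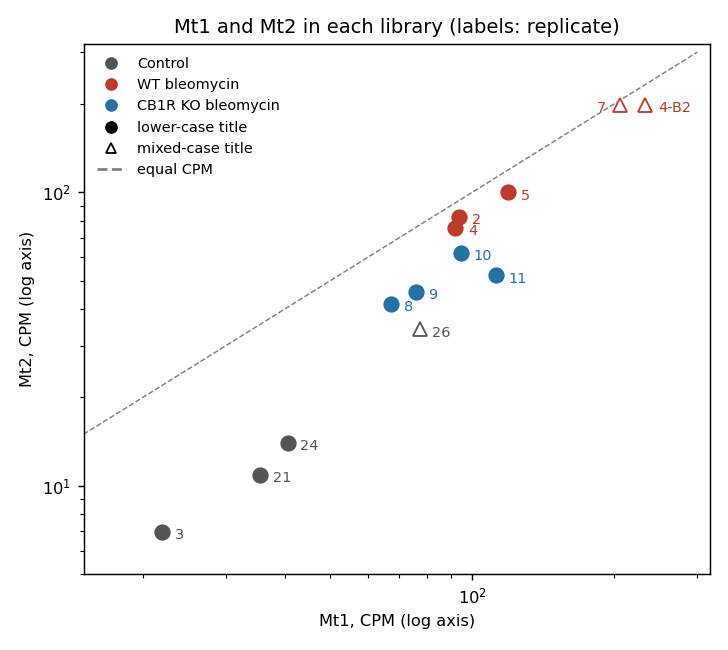
CPM of Mt1 (x) and Mt2 (y) in each of the 13 libraries, both axes logarithmic, coloured by group and labelled by replicate, with open triangles for mixed-case titles and a dashed line of equal CPM. Mt2 runs from 6.95 to 34.1 in Control, 41.7 to 62.1 in CB1R KO bleomycin and 75.4 to 198 in WT bleomycin, and the mixed-case library of Control and the 2 of WT bleomycin lie at the upper end of their groups.

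Genes known to respond to glucocorticoids, which also induce metallothioneins, were set beside this pattern. Of 10 such genes, 9 were higher in mixed-case libraries, with a median log2 difference of 0.62 against -0.00 over all genes tested. By edgeR none passed at an adjusted p under 0.05, and 5 had an unadjusted p under 0.05, as did 9.78% of all genes. Fkbp5, a glucocorticoid-induced chaperone, had the 11th lowest p at a log2 difference of 1.37 (SE 0.24, edgeR adjusted p = 0.0866). Its levels were 18.9, 38.9, 47.6 and 93.8 CPM in Control replicates 3, 21, 24 and 26, and 48.9, 65.0, 94.5, 160 and 191 CPM in WT bleomycin replicates 4, 2, 5, 4-B2 and 7, the same order as Mt1 within Control. The libraries labelled CB1R KO had 43.9, 69.8, 72.6 and 65.8 CPM in replicates 8 to 11. Against Control, 2 of the 10 rose and 5 fell in WT bleomycin (median -0.84), where 25.0% and 23.9% of all genes did. In the libraries labelled CB1R KO, 1 rose and 3 fell (median -0.69), where 19.0% and 16.3% of all genes did. Their part in the metallothionein values was not tested.

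Counted together, 8 of the 10 genes changed in WT bleomycin against Control. The 6 that rose were Slc39a14, Slc39a1, Slc39a7, Slc30a4, Mt1 and Mt2, where 25.0% of all genes tested rose, and the 2 that fell were Slc39a8 and Slc30a1, where 23.9% fell. The median log2 fold change was 0.37 for the members and -0.01 for all genes tested. In the libraries labelled CB1R KO against Control, 6 of 10 rose (Slc39a14, Slc39a1, Slc39a7, Slc39a10, Mt1 and Mt2) and Slc30a1 fell, against 19.0% and 16.3% of all genes. The count of 7 fell to 4 without Control 3, Control 21, Control 26, WT bleomycin 5 or the library labelled CB1R KO 9 or 11, to 3 without the library labelled CB1R KO 10, and to 4 over lower-case titles. Slc39a14, Slc39a1 and Mt2 passed the test against Control for both bleomycin groups in all 24 alternative analyses.

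Between the bleomycin groups, every library labelled CB1R KO lay below every WT bleomycin library for 3 of the 10 genes, Slc39a14, Slc30a4 and Mt2, where 3.10% of all genes tested did so. No member lay wholly above, where 2.50% of all genes did. By the edgeR test 1 member, Slc39a14, was called lower and none higher, where 0.620% of all genes were lower and 0.359% higher. Slc39a14 was not called over lower-case titles or without the library labelled CB1R KO 9. This contrast chose the set, and nothing is read from these counts. The members' median log2 difference was -0.18, against 0.00 over all genes tested. Of the increase in mean CPM seen in WT lungs, the libraries labelled CB1R KO held 71.5% ± 23.9 (SD, n = 4) for Slc39a1, 51.0% ± 20.9 for Slc39a7, 41.5% ± 19.1 for Mt1, 29.9% ± 32.7 for Slc30a4 and 29.7% ± 7.77 for Mt2. With Control and WT means taken over lower-case titles alone, the share was 79.3% ± 29.2 for Mt1 and 52.9% ± 11.8 for Mt2, and 50.7% ± 10.5 for Slc39a14.

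**Figure D3:**
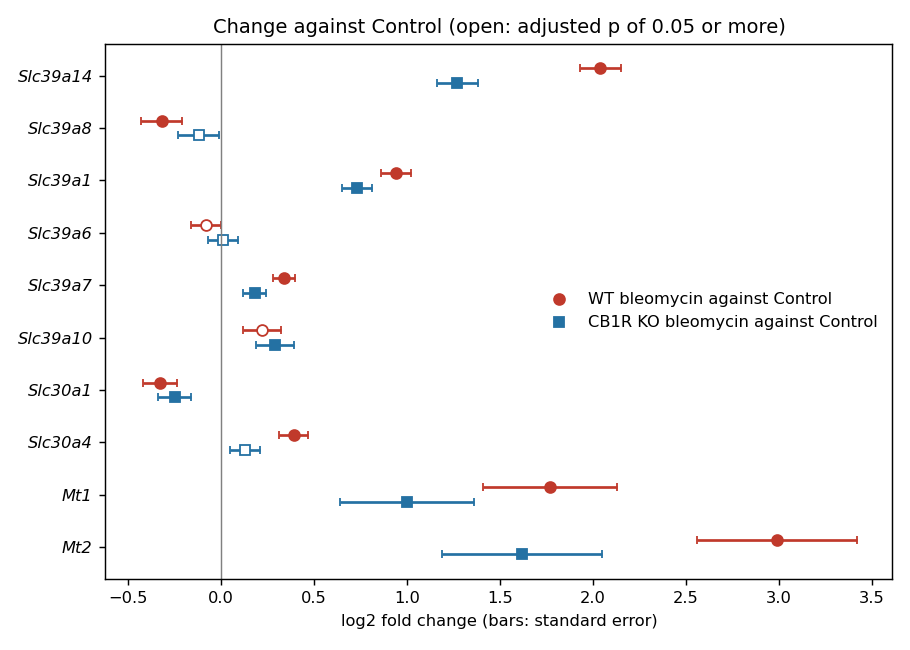
Log2 fold change against Control (x, with SE bars) of the 10 zinc genes (y) in WT bleomycin (circles) and CB1R KO bleomycin (squares), which share their Control libraries; filled symbols have an edgeR adjusted p under 0.05. Mt2 at 2.99 and Slc39a14 at 2.04 are farthest to the right in WT bleomycin, and Slc39a8 and Slc30a1 lie left of 0.

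On the TPM scale, which allows levels of different genes to be compared, the order of the members differed between groups. In Control, Mt1 (150 ± 64.6 TPM, SD) and Slc39a8 (126 ± 10.2) led with overlapping ranges, and Slc39a14 was last at 8.15 ± 0.776, overlapping Slc30a4 at 9.91 ± 0.884. In WT bleomycin, Mt2 (602 ± 272 TPM) and Mt1 (544 ± 232) overlapped each other and lay apart from Slc39a1 (132 ± 6.29) below them. Over lower-case titles the Control means were 119 TPM for Mt1 and 49.8 for Mt2, and the WT bleomycin means were 377 and 405 (n = 3 each). Slc39a14 stood sixth there at 36.4 ± 4.00 TPM, apart from Slc39a8 at 104 ± 6.04 above it and from Slc39a6 at 19.8 ± 2.25 below it. In the libraries labelled CB1R KO, Mt1 (317 ± 49.2 TPM) and Mt2 (238 ± 40.6) overlapped, and Slc39a14 at 22.2 ± 3.54 overlapped Slc30a1 at 21.5 ± 1.44. The 14 Slc39 genes in the tables summed to 490 ± 23.1 TPM in Control, 597 ± 13.4 in WT bleomycin and 587 ± 25.2 in CB1R KO bleomycin. The 9 Slc30 genes summed to 96.4 ± 7.02, 97.6 ± 3.08 and 102 ± 5.88 TPM. The importer sum was thus higher in every bleomycin library (555 to 616) than in every Control library (457 to 511), while the exporter sums overlapped. Slc39a14 made up 1.67% ± 0.197 of the Slc39 sum in Control, 6.09% ± 0.616 in WT bleomycin and 3.80% ± 0.713 in the libraries labelled CB1R KO, and Slc39a8 25.6% ± 1.15 (SD), 17.4% ± 1.01 and 20.8% ± 3.45. The share of Slc39a1 was 13.7% ± 0.572, 22.1% ± 0.665 and 20.0% ± 3.21 in the same order.

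**Figure D4:**
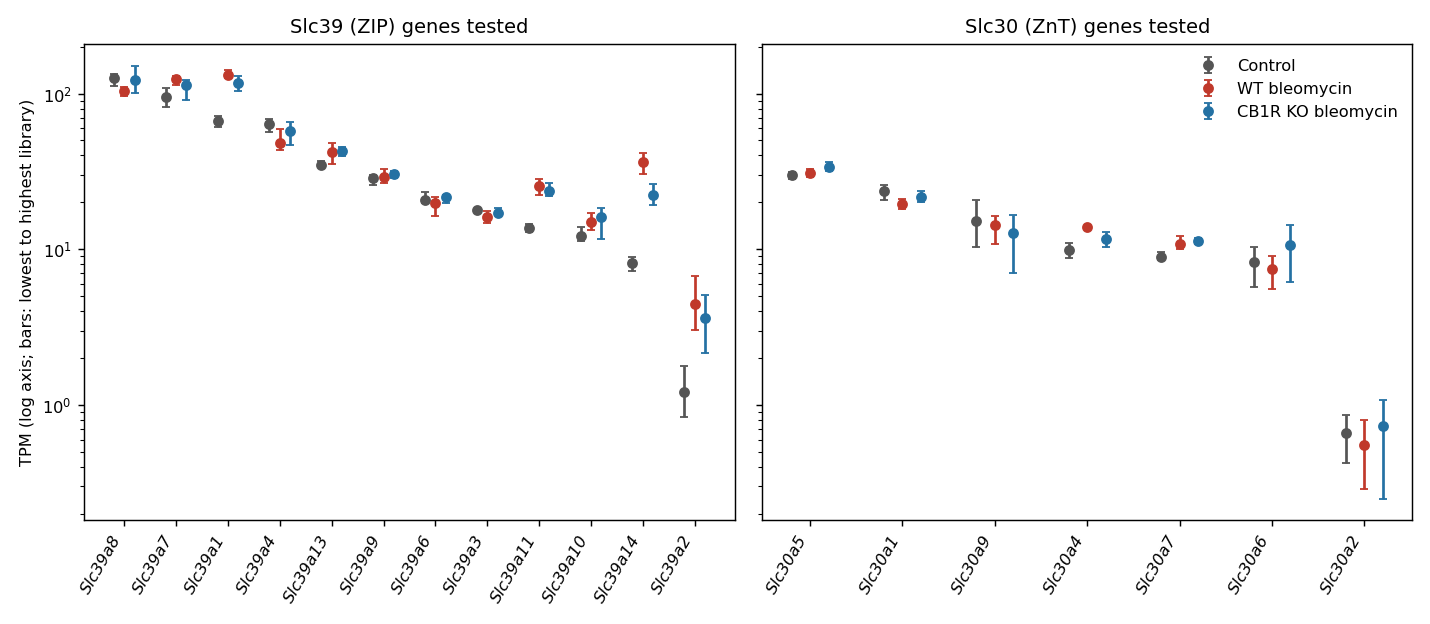
Mean TPM (points, logarithmic axis) with the lowest and highest library (bars) of the Slc39 and Slc30 genes that passed the count filter, ordered by their Control mean. Slc39a14 moves from 8.15 TPM in Control to 36.4 in WT bleomycin and 22.2 in CB1R KO bleomycin, while most Slc30 genes keep overlapping ranges.

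Among 19 other genes of zinc transport and its regulation, 18 were in the tables and 12 were tested. In WT bleomycin 4 of the 12 rose and 2 fell against Control, beside the 25.0% and 23.9% of all genes given above. Those that rose were Slc39a2, an importer of low level in lung (log2 fold change 1.85, SE 0.29), Slc39a11 (0.83, SE 0.08), Slc39a13, a transporter needed for collagen-forming connective tissue (0.28, SE 0.07), and Slc30a7, which loads zinc into the Golgi (0.24, SE 0.06), with edgeR adjusted p of 0.00543 or less. Those that fell were Slc39a4, the main intestinal importer (-0.47, SE 0.11, edgeR adjusted p = 0.00242), and Slc39a3 (-0.17, SE 0.06, edgeR adjusted p = 0.0330). The same 4 rose in the libraries labelled CB1R KO and none fell, where 19.0% and 16.3% of all genes did. The 4 log2 fold changes were 1.5, 0.73, 0.23 and 0.26, with edgeR adjusted p of 0.0188 or less. Mtf1, the zinc-sensing factor itself, had log2 differences of -0.20 (SE 0.08, edgeR adjusted p = 0.0604) and -0.16 (SE 0.09, edgeR adjusted p = 0.176). Between the bleomycin groups none of the 12 was called by edgeR or DESeq2, none had an unadjusted p under 0.05 by either, and their median log2 difference was 0.03.

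Other metals that these carriers also handle were described from 15 genes of iron and manganese handling and 6 of copper handling. In WT bleomycin 11 of the 15 rose and none fell, where 25.0% and 23.9% of all genes did, with a median log2 fold change of 0.39. They included Steap4, a ferric reductase (1.2, SE 0.14, edgeR adjusted p = 1.10e-05), Slc11a1, a metal transporter of macrophage phagosomes (1.03, SE 0.15, edgeR adjusted p = 7.96e-05), and Tfr2, a transferrin receptor at a mean of only 0.690 CPM (1.0, SE 0.28, edgeR adjusted p = 0.0109). The rise of Tfr2 was not seen on the TPM scale, where its mean was 0.523 in Control and 0.428 in WT bleomycin, with overlapping ranges. Of the 15 genes 8 rose and none fell in the libraries labelled CB1R KO, where 19.0% and 16.3% of all genes did, with a median of 0.27. Among the copper genes, Atox1, a copper chaperone (0.83, SE 0.09, edgeR adjusted p = 5.06e-06), and Slc31a2 (0.33, SE 0.06, edgeR adjusted p = 0.000583) rose in WT bleomycin, and Atp7b, a copper-exporting ATPase, fell by 1.34 (SE 0.23, edgeR adjusted p = 0.000275). In the libraries labelled CB1R KO the same 3 copper genes passed the test in the same directions. Between the bleomycin groups none of the 21 genes was called by edgeR, where 4 had an unadjusted p under 0.05, a share near the 17% of all genes tested. DESeq2 called 2 of them, Cp, the ferroxidase ceruloplasmin, and Tfrc, the main transferrin receptor, among the 644 of 19837 genes (3.25%) that it called. These moved in opposite directions: in the edgeR fit the log2 difference was -0.30 (SE 0.07) for Cp and 0.43 (SE 0.10) for Tfrc.

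The 17 genes of IL-6 family signalling and its STAT3 response were set beside Slc39a14, which that pathway is known to induce. In WT bleomycin 15 rose against Control and 1 fell, where 25.0% and 23.9% of all genes did, with a median log2 fold change of 1.27. The largest rises were of Timp1, an inhibitor of matrix proteases (4.58, SE 0.35, edgeR adjusted p = 2.76e-07), and Saa3, an acute-phase protein (4.36, SE 0.37, edgeR adjusted p = 5.60e-07), and the gene that fell was Il6ra, the IL-6 receptor chain (-0.91, SE 0.13, edgeR adjusted p = 4.55e-05). Of the 17, 10 rose and 1 fell in the libraries labelled CB1R KO against Control, where 19.0% and 16.3% of all genes did, with a median of 0.87. Of the 17, 3 were called lower and none higher in CB1R KO than in WT bleomycin, where 0.620% and 0.359% of all genes were, and the median log2 difference was -0.52, with 16 of 17 below 0. The 3 were Timp1 at -1.46 (SE 0.29), Socs3, the feedback inhibitor of STAT3 signalling, at -1.04 (SE 0.18), and Hp, haptoglobin, at -0.34 (SE 0.07). None of the 3 was called over lower-case titles, with a title-style term, or without WT bleomycin 5, WT bleomycin 4-B2 or the library labelled CB1R KO 8, 9 or 11, and Timp1 and Hp were also not called without WT bleomycin 2 or 7. The median of -0.52 and the 16 of 17 include the mixed-case libraries of WT bleomycin and are given over all libraries only. Of the 17, 14 were higher in mixed-case than in lower-case libraries (median log2 difference 0.12), with none called. Mean Socs3 was 43.9 CPM in Control, 271 in WT bleomycin and 132 in the libraries labelled CB1R KO. The contrast between the bleomycin groups chose Slc39a14, and this list was chosen with earlier results of these data known. Counts from that contrast are a description, and nothing is read from them. Whether IL-6 signalling had a part in the Slc39a14 values was not tested.

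The genes with levels most like those of Slc39a14 over the 13 libraries were named by the mean absolute difference of log2 CPM after centring each gene. They were Fcgr2b, an inhibitory Fc receptor of myeloid and B cells (0.128), Mex3a, an RNA-binding protein (0.162), Sh3pxd2b, an adaptor of podosomes (0.165), Cd109, a surface glycoprotein (0.172), and Tubb6, a beta tubulin (0.172). For Mt1 they were Sema6b (0.278), Gadd45g (0.294), Ccl17 (0.296), Fkbp5 (0.306) and Bdkrb1 (0.316). For Mt2 they were Fst, the activin antagonist follistatin (0.386), Megf11 (0.394), Clca3a1 (0.409), Cdkn2a (0.419) and Gp2 (0.427). The nearest genes of both metallothioneins were therefore farther away than those of Slc39a14. Mt1 and Mt2 differed from each other by 0.496 on this measure, Mt1 ranked 31 among the genes nearest to Mt2, and Mt2 ranked 603 among those nearest to Mt1. These distances describe the same 13 libraries, which share the group differences.

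Markers of lung cell types moved with the groups as well, and in bulk RNA fewer cells of a type and less RNA per cell cannot be told apart. Of 14 marker lists, 3 had summed TPM higher in every WT bleomycin than in every Control library (monocyte-derived and interstitial macrophages, fibroblasts and transitional epithelium). In 7 it was lower in every WT bleomycin library (type II cells, type I cells, endothelium, ciliated cells, T and NK cells, cardiac and striated muscle and red blood cells), and alveolar macrophages, neutrophils, B and plasma cells and adipocytes overlapped. The sums weight abundant markers most: of the 5 ciliated cell markers 1, Tppp3, fell (log2 fold change -1.21, SE 0.14) and 4 were not called, and of the 6 type I markers 2 fell while 1, Pdpn, rose (0.63, SE 0.07). Markers of the overlapping lists were also called in WT bleomycin. Of the neutrophil markers 6 were tested and 5 fell, and of the adipocyte markers 5 were tested and 3 fell. Of the 5 B and plasma cell markers 3 fell and 1 rose, and of the 7 alveolar macrophage markers 1 fell. For the counts of markers called against Control, 25.0% of all genes tested rose and 23.9% fell in WT bleomycin. In the libraries labelled CB1R KO, 19.0% rose and 16.3% fell. The 7 markers of monocyte-derived and interstitial macrophages summed to 207 to 305 TPM in Control, 1444 to 1726 in WT bleomycin and 822 to 1522 in the libraries labelled CB1R KO, and 6 of the 7 rose against Control in each bleomycin group. Fn1, which the authors name as a fibrogenic marker, had the highest CPM of this list, with means of 649, 5024 and 2776 in the same order. Between the bleomycin groups Fn1 differed by -0.86 on the log2 scale (SE 0.18), against -0.00 (SE 0.20) for Trem2 and a list median of -0.32, with 5 of 7 below 0. The 7 fibroblast markers summed to 670 to 768, 1818 to 2294 and 1427 to 1957 TPM, and 4 rose in WT bleomycin. The 6 type II markers summed to 31401 to 36786, 18898 to 22487 and 23550 to 36924 TPM, with 4 lower in WT bleomycin. Type II cells and T and NK cells were the 2 lists whose sums were higher in every library labelled CB1R KO than in every WT bleomycin library, and no list was lower in all. None of the markers of these lists was at 0 in every library. The part of these cell markers in the levels of the zinc genes was not tested.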

How the data were processed

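Reads of lung-lobe RNA (oligo(dT) enrichment, NEBNext Ultra II, paired-end HiSeq) were quantified by the authors with Kallisto (version not given in the sources used here) on Ensembl release 105, listed as GRCm39. The authors summed estimated counts and length-scaled TPM of protein-coding transcripts to gene symbols, and both deposited tables were used here. The tables of single samples were not used. A single column of TPM (n = 1) matched no labelled sample and was not used. Counts were not normalized, and 35.2% were whole within 0.001.

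Groups were taken from the sample titles. Counts were rounded, filtered with filterByExpr, scaled by TMM and fitted over all 13 libraries in edgeR 4.0.16 (quasi-likelihood test, R 4.3.3). P-values were adjusted over 15315 genes by the Benjamini-Hochberg method at 0.05, separately in 3 comparisons. CPM was TMM-scaled, and a prior count of 2 was used for log2 CPM. A call means an adjusted p under 0.05. The code was tested on simulated data.

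The members and gene lists were chosen with earlier results of these data known. All members, the wider zinc list, the 5 genes nearest to Slc39a14, Mt1 and Mt2, and at most 4 genes with the largest or smallest change of each context or marker list were named. Hp, Cp, Tfrc, Tppp3, Pdpn and the called copper genes were named after their values were seen, to identify small counts. Fn1 and Trem2 were also named after their values were seen, to describe the sum of their list. The share of WT rise kept in a CB1R KO library was its CPM minus the Control mean, over the WT bleomycin mean minus the Control mean. Alternatives (24) were other count filters, RLE and upper-quartile scaling, DESeq2 1.42.0, limma 3.58.1 on log2 TPM with pseudocounts of 1 and 0.1, 2-group fits, lower-case titles only, thinning of CB1R KO replicate 11, each library left out, and a title-style term. The last was chosen after seeing the data. No value of the 30 combinations of member and group stood apart from its group by a Dixon test. With 4 or 5 values per group, this test of single values cannot show that no library is apart. Nor can it flag 2 high values together, such as Mt1 and Mt2 in WT bleomycin 4-B2 and 7. Promoters came from RefSeq GRCm38.p6; no coordinates were converted between builds.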

Additional observations from a re-analysis of the deposited data

How the results depend on the processing

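Over 24 alternatives, the number of members called ranged from 7 to 9 (8 as reported) in WT bleomycin against Control, and the wider zinc list gave 5 to 7 (6) and, in CB1R KO bleomycin, 3 to 5 (4). The members called in CB1R KO bleomycin against Control were 7 as reported, 4 over lower-case titles, and 3 to 7 with each library left out. These fits hold fewer samples. The log2 difference of Slc39a14 between the bleomycin groups stayed between -0.85 and -0.67. That of Slc39a6 in CB1R KO bleomycin against Control (0.01) turned to -0.01 under upper-quartile scaling, to -0.01 over lower-case titles and to -0.03 with a title-style term, and ranged from -0.02 to 0.06 with each library left out. Between the bleomycin groups a title-style term gave -0.19 for Mt1 and -0.70 for Mt2, and Mt1 stood at -0.54 without WT bleomycin 4-B2. Slc39a8 in WT bleomycin lost its call with limma on log2 TPM at adjusted p values of 0.0524 and 0.0532. Slc39a10 in WT bleomycin gained one in 2 alternatives, the fit of 2 groups (adjusted p = 0.0124) and the fit without CB1R KO replicate 11 (0.00895). The background between the bleomycin groups was itself unsteady: 150 genes were called as reported, 644 by DESeq2, 41 with a title-style term, 6 over lower-case titles, and 1 to 653 with each library left out (1 without CB1R KO 9, 653 without CB1R KO 10). The comparisons were unpaired, because the labels name no pairs of samples between groups. With 4 or 5 libraries per group, a difference that missed the threshold is not shown to be absent.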
